A study of Mus musculus with 6 samples.

Results

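The integrin and laminin genes of the mouse were followed in ATAC-seq peak lists from smooth muscle cells of the oviduct. They comprised 36 genes, 26 integrins and 10 laminins, chosen by name from the 55450 genes of the GENCODE M21 annotation. A region belonged to a gene if it overlapped the gene body extended by 10 kb on each side. Of the 66679 regions obtained by merging the WT and Pbrm1 cKO peak lists, 210 belonged to these genes, and none belonged to more than 1 of them. The genes were sorted by the cells that mainly use them into 5 classes, which were 11 muscle and mesenchymal integrins, 6 epithelial integrins, 9 leukocyte and platelet integrins, 6 laminins of muscle and vascular basement membranes and 4 epithelial and other laminins.

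ATAC-seq marks open chromatin through the insertions of the Tn5 transposase. The libraries came from primary oviductal smooth muscle cells of mice aged 8 to 12 weeks on day 2 of pregnancy, dissociated, filtered and briefly plated, with 3 WT and 3 Pbrm1 cKO libraries. The study defines Pbrm1 cKO as Pbrm1 fl/fl with PR-IRES-cre, which recombines in cells that express the progesterone receptor, and its controls as Pbrm1 fl/fl. The genotype labels of these libraries read WT or Pbrm1 cKO, and state neither the cross nor whether a library pooled animals.

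Integrins are αβ heterodimers that anchor cells to the extracellular matrix and connect it to actin through talin, vinculin and kindlins. Laminins are αβγ trimers that build the basement membrane around each smooth muscle cell and beneath epithelia, and are bound by integrins and dystroglycan. PBRM1 is a subunit of the PBAF form of the SWI/SNF chromatin remodelling complex.

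The promoters of the 5 smooth muscle marker genes (Acta2, Myh11, Cnn1, Tagln and Des) all held a region. Of 7 epithelial markers 1 did (Foxj1), as did 1 of 6 leukocyte markers (Csf1r), 4 of 4 endothelial markers and 4 of 5 fibroblast markers. The region of Foxj1, a ciliated cell factor, ranked between 2715 and 7249 of 66679, better in every library than any smooth muscle marker region, of which the best rank was 14049. The defining epithelial genes Epcam, Cdh1, Krt8 and Krt18 and the leukocyte genes Ptprc and Cd3e held none. In such bulk libraries a different share of a cell type and different accessibility within a cell cannot be told apart.

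The sequences that the genotype comparison turned on are shown as 200 bases of the plus strand of GRCm38, centred on the summit of the pooled peak. Those first listed were the regions with the smallest p of the muscle and the leukocyte integrins, the third was that of the epithelial laminins, and the fourth was the best-ranked region called in Pbrm1 cKO cells alone. The last 2 are shown because their rank differed between genotypes on 1 of 2 scales. Capitals mark matches on either strand to TGANTCA, the pattern searched for AP-1 with any base at N, or to the RUNX motif TGTGGT.
Itgb5 intron, chr16:33860089-33860288: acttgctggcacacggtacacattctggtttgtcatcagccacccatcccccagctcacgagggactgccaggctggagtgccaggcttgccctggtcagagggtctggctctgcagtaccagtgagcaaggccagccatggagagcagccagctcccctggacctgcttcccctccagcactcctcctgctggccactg
Itgam intron, chr7:128089212-128089411: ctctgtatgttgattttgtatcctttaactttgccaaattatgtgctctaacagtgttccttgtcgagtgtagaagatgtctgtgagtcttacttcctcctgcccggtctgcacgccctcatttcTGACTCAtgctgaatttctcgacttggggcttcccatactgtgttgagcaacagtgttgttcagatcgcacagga
Lamb3 window, chr1:193227119-193227318: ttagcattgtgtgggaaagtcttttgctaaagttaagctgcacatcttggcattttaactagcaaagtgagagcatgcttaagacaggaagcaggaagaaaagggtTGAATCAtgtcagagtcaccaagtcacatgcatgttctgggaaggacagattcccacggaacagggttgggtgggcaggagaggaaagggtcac
Itga6 internal start, chr2:71837908-71838107: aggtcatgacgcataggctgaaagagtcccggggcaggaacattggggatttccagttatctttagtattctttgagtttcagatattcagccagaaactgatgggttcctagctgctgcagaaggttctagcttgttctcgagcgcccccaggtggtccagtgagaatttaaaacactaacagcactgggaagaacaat
Itga11 promoter, chr9:62678513-62678712: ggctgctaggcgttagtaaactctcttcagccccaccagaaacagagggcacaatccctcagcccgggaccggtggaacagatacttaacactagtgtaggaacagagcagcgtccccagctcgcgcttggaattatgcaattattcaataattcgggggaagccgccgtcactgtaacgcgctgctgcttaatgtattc
Lamb3 window, second region, chr1:193226871-193227070: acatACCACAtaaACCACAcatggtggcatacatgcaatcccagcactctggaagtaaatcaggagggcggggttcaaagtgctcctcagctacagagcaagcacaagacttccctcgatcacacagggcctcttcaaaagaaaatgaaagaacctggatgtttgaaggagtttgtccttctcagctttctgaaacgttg
The Itgam and the first Lamb3 window each held 1 match to the AP-1 pattern, with C at the open base in Itgam and A in Lamb3. The second Lamb3 window held 2 RUNX matches. The other 3 windows held no match to any of the 6 motifs searched.

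The classes differed in how densely their genes carried regions. The muscle and mesenchymal integrins held 84 regions, or 6.26 per 100 kb of gene window, and the epithelial integrins 39, or 6.47 per 100 kb. The leukocyte and platelet integrins held 19, or 3.34 per 100 kb. Laminins of muscle and vascular basement membranes held 40 regions, or 3.50 per 100 kb, and the epithelial and other laminins 28, or 4.31 per 100 kb. Of the 1143 kb of window of the muscle and vascular laminins, Lama2 made up 660 kb, with 9 of the 40 regions. All 36 genes held at least 1 region, and the number per gene ran from 1 to 17. Genes within a class varied more than the classes did, so the densities are given as a description.

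**Figure D1:**
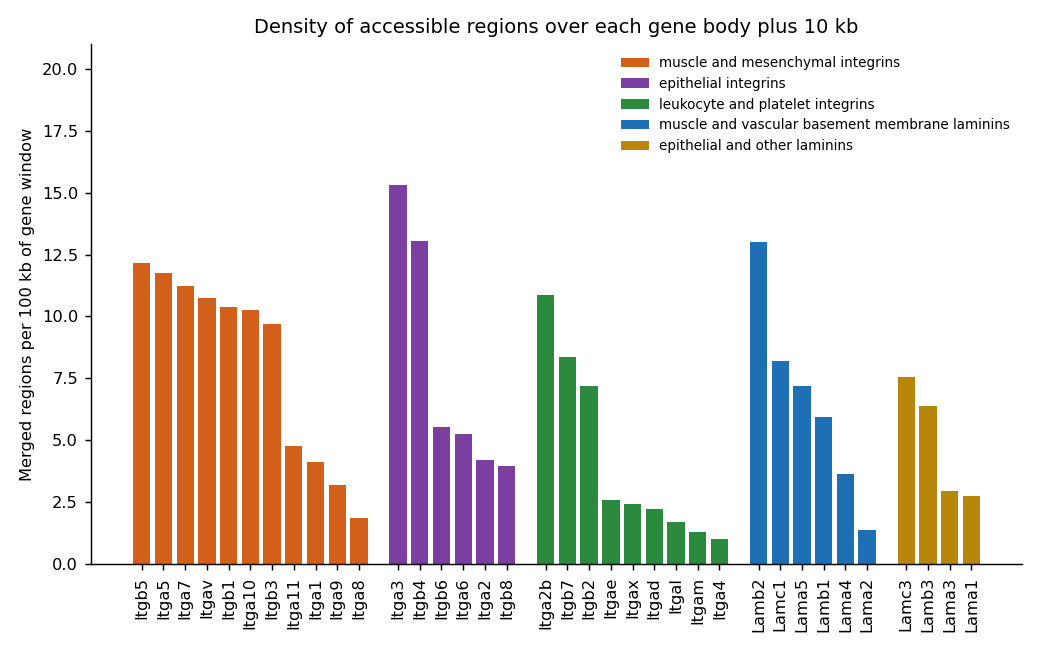
Merged accessible regions per 100 kb of gene window (gene body plus 10 kb on each side), 1 bar per gene, grouped and coloured by class. Most leukocyte integrins sit below 3 regions per 100 kb, while Itga2b, Itgb7 and Itgb2 reach 10.9, 8.34 and 7.21.

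Among the muscle and mesenchymal integrins, Itgb5, a β subunit that pairs with αv to bind vitronectin, carried the most regions of any member, 17 at 12.2 per 100 kb. Itga5, the fibronectin receptor α subunit, held 5 regions at 11.8 per 100 kb, and Itgb1, the β subunit shared by most matrix receptors, held 7 at 10.4 per 100 kb. Itga8, a receptor subunit prominent in smooth muscle, held 4 regions over a long gene, 1.86 per 100 kb. The large laminin gene Lama2, which encodes the α chain of muscle basement membranes, held 9 regions over a window of 660 kb, 1.36 per 100 kb.

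The leukocyte integrins formed 2 sets by density. Itgal, Itgax, Itgam, Itgad, Itgae and Itga4, most of which are α subunits of lymphocyte and myeloid receptors, had between 1.02 and 2.60 regions per 100 kb. The single region of Itgam, the αM subunit of macrophages and neutrophils, was intronic, and Itgad and Itgae had no region within 1 kb of an own start. Itga2b, the platelet αIIb subunit, held 4 regions at 10.9 per 100 kb.

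Of the 210 regions, 71 lay within 1 kb of an annotated start of any gene (33.8%, against 32.3% of all merged regions), 104 lay in introns (49.5%, against 33.7%), 13 in exons and 22 between genes. Only 48 were at a start of the member gene itself, and 23 were at the start of a neighbour. A start of another gene was the nearest for 75. The choice of gene bodies with short flanks favours introns over intergenic positions, and no test was made of these shares.

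Ranks were taken inside each library from the best −log10 p over a region, with rank 1 the strongest of 66679 and ties given their mean rank. The rank score was log2 of 66679 divided by the rank. A higher score is thus a stronger region, and a score higher by 1 is a halving of the rank number. The depth behind a region was the number of tags at its summit, worked out from the caller's fold and p. The median over member regions was 30, 25 and 16.5 tags in WT 1 to 3, and 31, 28 and 28 in Pbrm1 cKO 1 to 3. WT 3 was the shallowest, and ranks in it rest on the fewest tags.

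A promoter region was found for 32 of the 36 genes, and for 27 it lay within 1 kb of the gene's 5′ end. Itgb6, Itgam, Itgad and Itgae had none. Only 3 genes had a promoter region within the first 10000 ranks in all 6 libraries.

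Itgb1 had the best-ranked 5′ promoter of all members (chr8:128685306-128686408). It ranked 4088.5, 6019 and 4186 in the WT libraries and 4057, 5106 and 3148 in the Pbrm1 cKO libraries, with 106, 80, 68, 121, 102 and 116 tags. The genotypes overlapped (difference 0.22, SE 0.41, limma with Benjamini-Hochberg adjustment, adjusted p = 0.847). The Itga5 promoter ranked 9376, 8513 and 4503 in WT and 7254, 8288 and 8814 in Pbrm1 cKO, and its range met that of Itgb1. The Itga8 promoter followed at 8232, 10848 and 4074 in WT and 9801.5, 7358 and 9900 in Pbrm1 cKO. The αv promoter (Itgav) had a median rank of 11666.5 and the collagen receptor Itga1 one of 14025.8. These neighbours in the order overlapped in their library ranges.

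At the other end of this class stood the collagen receptor subunits Itga11 and Itga10. The region at the 5′ end of Itga11 ranked between 38511.5 and 54806, and that of Itga10 between 32880.5 and 54129. Itga7, the α subunit of the laminin receptor of muscle, was the most scattered. Its promoter region ranked 14987, 41493 and 11719.5 in WT and 42181, 25842.5 and 48431 in Pbrm1 cKO, a difference of −0.95 (SE 0.42, limma adjusted p = 0.282). WT 2 lay among the Pbrm1 cKO libraries, so the genotypes overlapped.

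Among the epithelial integrins the promoter of Itgb8, whose αvβ8 product binds latent TGF-β, stood out at ranks of 5387.5, 12397.5 and 8483.5 in WT and 7624, 9295.5 and 5437 in Pbrm1 cKO. Itgb4, the hemidesmosome β subunit, lay at the bottom, between 40377 and 65085. The promoter of Itga3, a laminin receptor subunit, was intermediate in WT (24695, 33969 and 23352) and lower in Pbrm1 cKO (43643.5, 56172 and 40431). No Pbrm1 cKO library reached the WT range, but the difference of −0.78 (SE 0.29) did not pass (limma adjusted p = 0.207). An adjacent region near an Itga3 start (chr11:95075284-95075742) went the other way, by 0.54 (SE 0.25, limma adjusted p = 0.295). There every Pbrm1 cKO library ranked better than every WT library.

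Of the leukocyte class, Itga2b had the best promoter region, at ranks from 3876 to 8550, but at a start 2451 bp inside the gene. The best Itgal region was also internal, 12698 bp from the 5′ end. Itgb2, the β subunit of leukocytes, ranked between 12356.5 and 22979.5 at a region 803 bp from its 5′ end, and Itga4 between 18246.5 and 36351.5. Itgax ranked between 31179.5 and 59853.

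Laminin promoters were also widely spread, with median ranks from 11153.5 for Lamc1 to 55398.8 for Lamb3. Those of the integrins ran from 4137.25 for Itgb1 to 58308.8 for Itgb4. Lamc1, the γ chain of most laminin trimers, led the muscle and vascular laminins (chr1:153332388-153334061), at ranks of 13767, 16339 and 12404 in WT and 9903, 8349 and 7713.5 in Pbrm1 cKO. All 3 Pbrm1 cKO libraries ranked it better than any WT library, with 92, 87 and 93 tags against 71, 56 and 41. The difference of 0.71 (SE 0.34) did not pass the test (limma adjusted p = 0.313).

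Its β chain partners differed in position. Lamb2 ranked between 16424 and 27937, and Lamb1 between 29868.5 and 57349.5. The α chain genes Lama5 and Lama4 had median promoter ranks of 23312.5 and 38243.2, and the best start region of Lama2 one of 44471. Among the epithelial and other laminins, the promoter of Lama1, an early embryonic α chain, ranked between 7369.5 and 19737.5, while Lamb3 and Lamc3 stayed between 37115.5 and 61327.

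**Figure D2:**
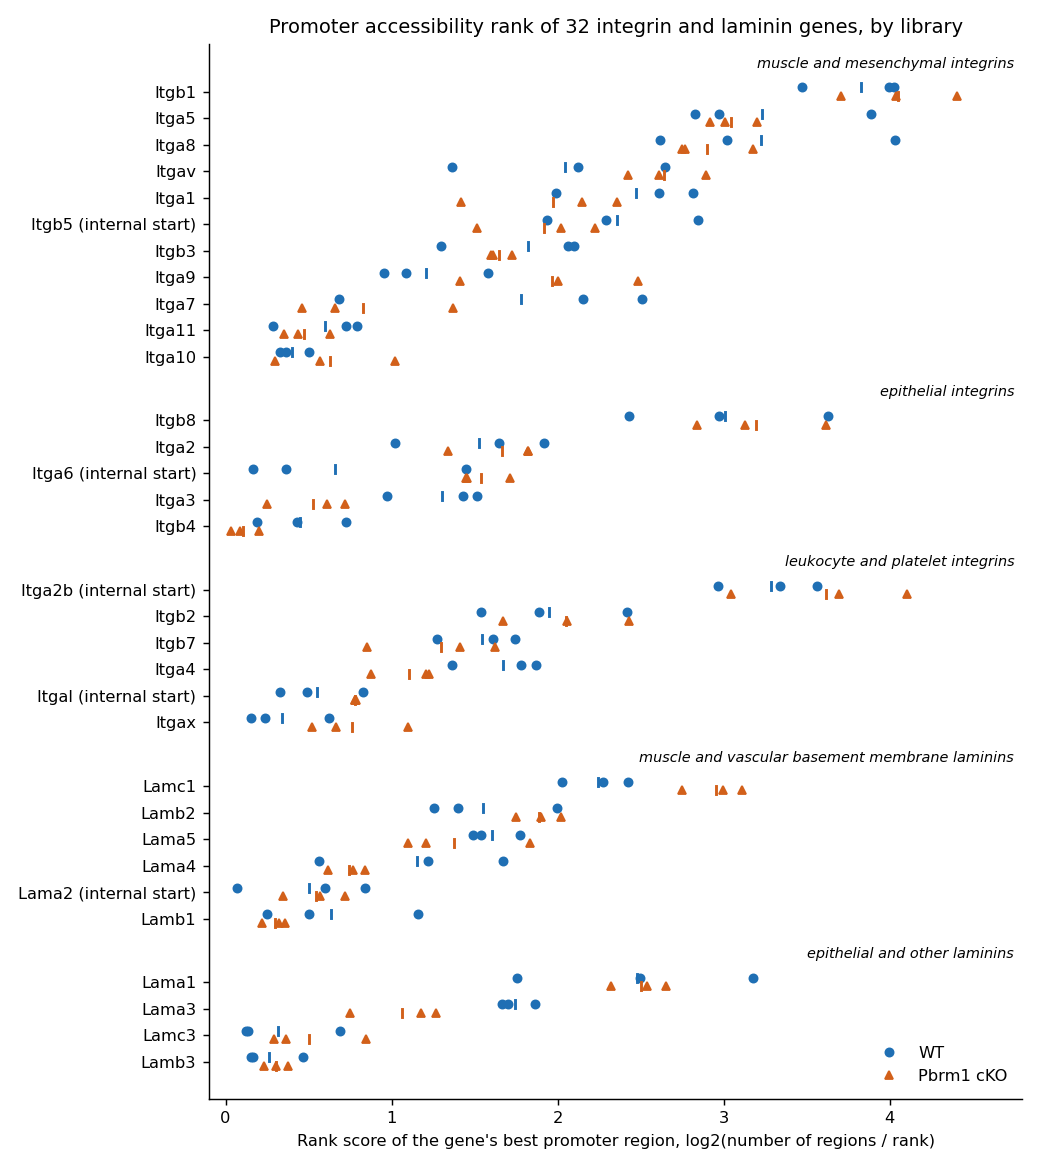
Rank score of each gene's best promoter region in every library, as log2(number of regions / rank), for the 32 genes with one, ordered within class. Blue circles are WT and orange triangles Pbrm1 cKO libraries, short vertical bars are means of 3. Itgb1, Itga5, Itga8, Itgb8 and Itga2b lie furthest to the right, and in most genes the genotypes overlap.

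Some of the strongest member regions belonged to neighbours or lay far from a start. Of 20 member regions with a median rank in the first 10000, 5 were at an own promoter, 8 at the promoter of another gene and 7 elsewhere. The first was the Adrm1 promoter in the window of Lama5 (median rank 3188.5) and the third the Pdk2 promoter in that of Itga3 (median rank 3870). Between them stood an intronic region of Itgb6 (chr2:60688901-60689643), 33.4 kb inside a gene with no region at its own start. It ranked 2656.5, 1983 and 4170.5 in WT and 3747, 2660 and 6273.5 in Pbrm1 cKO, with a difference of −0.50 (SE 0.47, limma adjusted p = 0.651).

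The genotype comparison asked whether loss of PBRM1 shifted any of these positions. By limma on the rank score, 0 of the 210 member regions passed an adjusted p of 0.05, where 45 of all 66679 did (0.0675%), 26 of them higher (0.039%) and 19 lower (0.0285%) in Pbrm1 cKO. At an unadjusted p under 0.05 there were 22 member regions (10.5%, against 15.9% of all regions), 11 higher (7.51% of all regions) and 11 lower (8.37%). Member differences ran from −0.95 to 0.88, with 104 above and 106 below 0 and a median of −0.01 (0.00 over all regions). The libraries of the genotypes did not overlap in 36 member regions (17.1%, against 21.5% of all regions), of which 17 ranked better in Pbrm1 cKO (10.6% of all regions) and 19 in WT (10.9%).

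**Figure D3:**
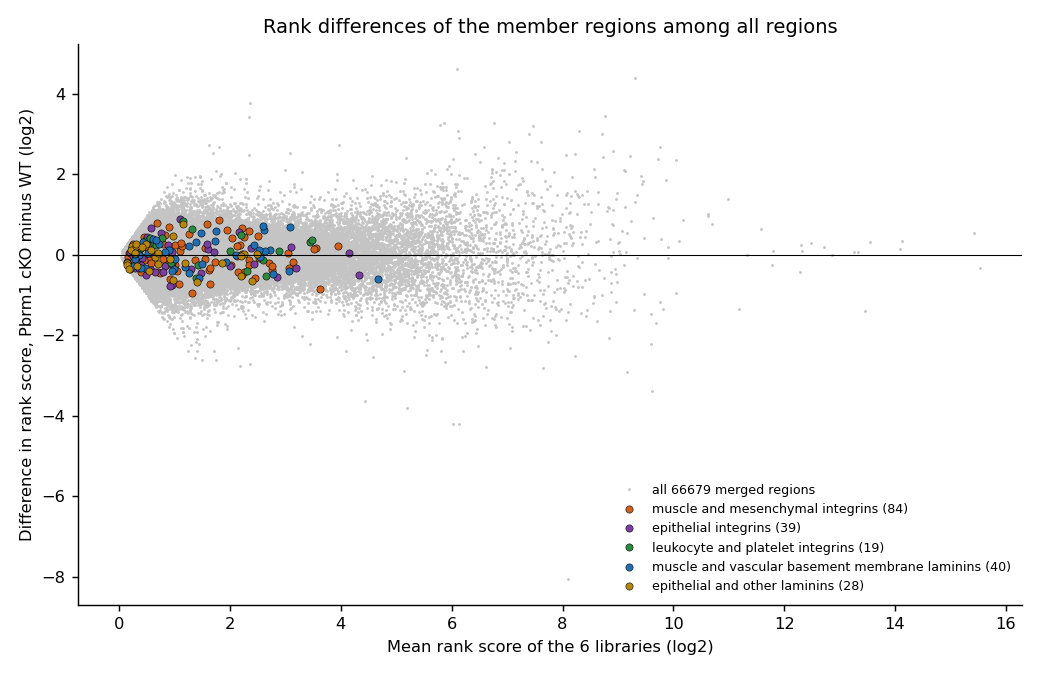
Difference in rank score (Pbrm1 cKO minus WT, log2) against the mean score of the 6 libraries for all 66679 merged regions in grey, with the 210 member regions coloured by class. The members lie within the grey cloud, with differences from −0.95 to 0.88.

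By class, 0 regions passed in each. At an unadjusted p under 0.05, the muscle and mesenchymal integrins had 5 higher and 4 lower regions in Pbrm1 cKO of 84, and the epithelial integrins 3 and 4 of 39. The leukocyte integrins had 1 higher of 19, the muscle and vascular laminins 1 higher of 40, and the epithelial and other laminins 1 higher and 3 lower of 28. With both directions together the shares were 10.7%, 17.9%, 5.26%, 2.50% and 14.3% in that order. Over all regions the share was 15.9%, with 7.51% higher and 8.37% lower. Median differences were −0.06, −0.18, 0.23, 0.06 and −0.05 in that order of classes.

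The smallest p of any member was that of an Itgb5 intron (chr16:33859900-33860557), centred 30.6 kb inside the gene. It ranked 59188, 49597 and 56250.5 in WT and 36917.5, 31718.5 and 26694 in Pbrm1 cKO, on 13, 14 and 7 tags against 24, 24 and 28. Every Pbrm1 cKO library ranked it better than every WT library. The scores were 0.28 ± 0.13 and 1.08 ± 0.23 (SD, n = 3 each), a difference of 0.80 (SE 0.24) with a limma adjusted p of 0.132.

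Next in this class was a region 704 bp from an Itga11 start (chr9:62678564-62678965), called in WT alone. It ranked 49903, 50612 and 54485 in WT and 65347, 66028 and 66371 in Pbrm1 cKO, where Pbrm1 cKO 3 had no entry at all. The WT libraries had 18, 15 and 8 tags and the first Pbrm1 cKO libraries 8 and 6. The difference was −0.35 (SE 0.11, limma adjusted p = 0.148). The third was a region beyond the 3′ end of Itga11 (chr9:62786783-62787107) with the opposite sign, 0.45 (SE 0.19, limma adjusted p = 0.258).

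In the epithelial integrins, an Itgb6 intron (chr2:60700828-60701323) had the second smallest p. It ranked 41037, 36943 and 41783.5 in WT and 58574.5, 61600 and 50597 in Pbrm1 cKO. No Pbrm1 cKO library reached the WT range. The difference was −0.51 (SE 0.19, limma adjusted p = 0.198).

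The intronic region of Itgam (chr7:128089179-128089732) had the smallest p of the leukocyte class. It ranked 29356.5, 46258 and 47515 in WT and 26565.5, 22215.5 and 18932.5 in Pbrm1 cKO (difference 0.84, SE 0.32, limma adjusted p = 0.214). The WT libraries had 24, 15 and 9 tags there and the Pbrm1 cKO libraries 28, 27 and 32. The promoters of Itgax and Itga4 followed with differences of 0.42 and −0.57 and limma adjusted p of 0.371 and 0.397.

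Among the muscle and vascular laminins, Lamc1 was followed by a Lama5 intron at −0.28 (SE 0.13, limma adjusted p = 0.323) and a Lama2 intron at 0.70 (SE 0.35, limma adjusted p = 0.341). The Lama2 region (chr10:27063703-27064260), 556 kb from the 5′ end, was among the strongest of its class. It ranked 11119.5, 9515 and 9572.5 in WT and 5852.5, 6767 and 6027 in Pbrm1 cKO, without overlap.

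In the epithelial and other laminins, both regions with the smallest p and a WT lead lay next to each other in the Lamb3 window, inside the overlapping gene Hsd11b1, whose start is the nearest. Hsd11b1 encodes the enzyme that regenerates active glucocorticoid. The first (chr1:193227131-193227358) ranked 58589.5, 46777.5 and 51846.5 in WT on 13, 15 and 8 tags and had no entry in any Pbrm1 cKO library. The second (chr1:193226783-193227031) ranked 49495.5, 53013 and 65147 in WT and had an entry in Pbrm1 cKO 2 alone, of 5 tags, and none in WT 3. Their differences were −0.35 (SE 0.12) and −0.26 (SE 0.11), with limma adjusted p of 0.161 and 0.282.

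Lama3, an α chain of the laminin beneath hemidesmosomes, had regions of both signs. Its promoter ranked 18329, 20498.5 and 21015.5 in WT and 27726.5, 29446.5 and 39701 in Pbrm1 cKO (difference −0.68, SE 0.32, limma adjusted p = 0.303). A region beyond its 3′ end differed by 0.76 (SE 0.32, limma adjusted p = 0.258). In both the genotypes did not overlap.

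**Figure D4:**
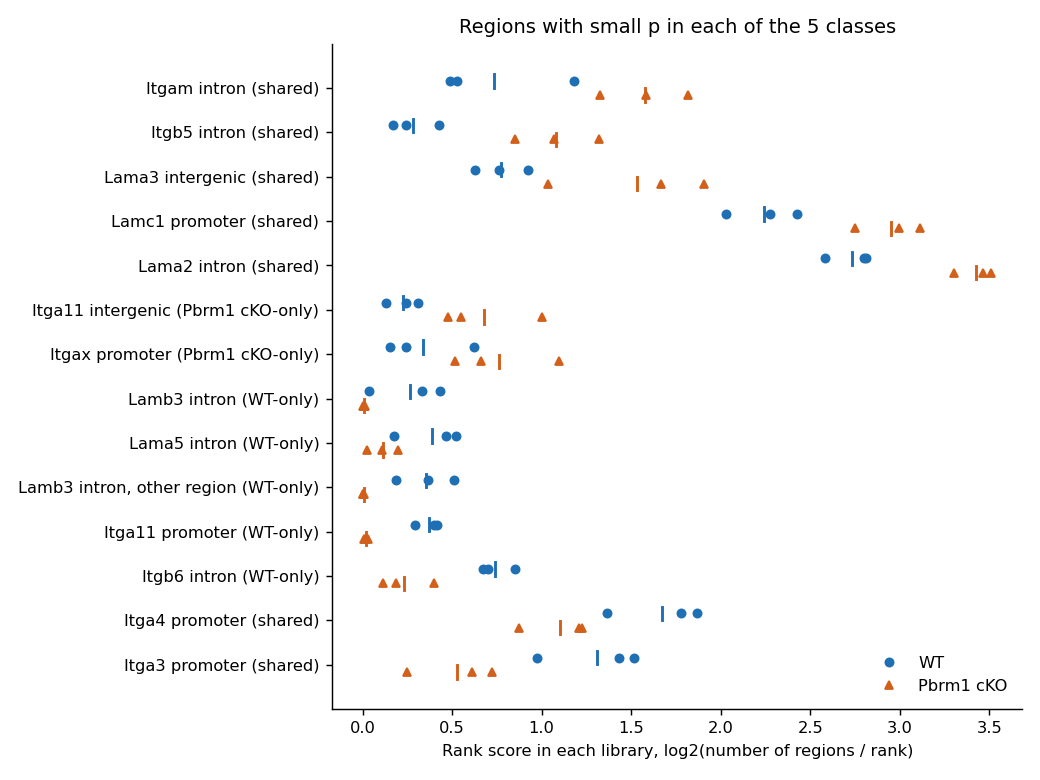
Rank score per library of regions with small p, the first 3 by p in each class except the epithelial integrins, where the 2 that follow the smallest p are plotted, ordered by the difference between genotypes. Blue circles are WT, orange triangles Pbrm1 cKO, vertical bars means of 3, and brackets give the list that called the region. The Lamc1 and Lama2 regions lie highest, and none of the 14 passed an adjusted p of 0.05.

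On a second scale, where ranks were turned into normal scores that stretch the weak end of the list, 3 of the 210 member regions passed (2.33% of all regions), 3 lower in Pbrm1 cKO and 0 higher (1.33% and 0.993% of all regions). They were both Lamb3 window regions (limma adjusted p = 0.00324 and 0.0272) and the Itga11 promoter region (limma adjusted p = 0.0164). All 3 rest on missing or very weak entries in the Pbrm1 cKO libraries. The Itga11 call was lost without any single library other than WT 3 (adjusted p from 0.0503 to 0.0929), as was that of the second Lamb3 region (0.0562 to 0.168). The first Lamb3 region lost its call without Pbrm1 cKO 1 (adjusted p = 0.0589).

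The pooled lists of the genotypes shared 154 of the 210 regions (73.3%, against 69.2% of all). In WT alone 19 were called (9.05%, against 13.4%) and in Pbrm1 cKO alone 37 (17.6%, against 17.4%). Each genotype has 1 pooled list, so these counts have no replicate check. With only the entries above the median −log10 p of each list, 13 were WT-only and 12 Pbrm1 cKO-only. The leukocyte integrins had no WT-only region, and Itga9, a receptor subunit of smooth muscle and lymphatic endothelium, and Lamb3 had 3 each.

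Regions called in 1 genotype were mostly present in the other below the list's limit. Of the 19 WT-only regions 11 had an entry in all 6 libraries (57.9%, against 84.6% of all WT-only regions), and of the 37 Pbrm1 cKO-only regions 35 did (94.6%, against 77.8%). By the mean score of the WT libraries, the best-ranked WT-only region, at an exon upstream of Itgb4 (chr11:115964912-115965571), ranked 33369.5, 41077 and 31799.5 in WT and 27540, 51786 and 26323 in Pbrm1 cKO, and its difference was 0.07 (SE 0.32, limma adjusted p = 0.942). A WT-only Itga8 intron (chr2:12213089-12213419) ranked 31165.5, 39442.5 and 35549.5 in WT and 61893, 50567 and 34550 in Pbrm1 cKO, where Pbrm1 cKO 3 lay in the WT range.

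By the mean score of the Pbrm1 cKO libraries, the best-ranked Pbrm1 cKO-only region was at an internal Itga6 start (chr2:71837765-71838140). Itga6 encodes a laminin receptor subunit of epithelia. It ranked 24393, 59500 and 51846.5 in WT and 20299, 24324.5 and 24450 in Pbrm1 cKO, on 28, 11 and 8 tags against 37, 28 and 27. WT 1 ranked between the Pbrm1 cKO libraries, and the difference of 0.88 (SE 0.35) had a limma adjusted p of 0.231. A Lamc1 intron (chr1:153299382-153299782) and the Itgax promoter followed by the same measure, with differences of 0.36 and 0.42.

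Per library, the member windows held 675, 640 and 677 distinct intervals of the relaxed lists in WT and 612, 627 and 653 in Pbrm1 cKO. The means were 664 ± 20.8 and 631 ± 20.7 (SD, n = 3 each), and WT 2 lay inside the Pbrm1 cKO range. The libraries held different numbers of intervals in all, 241237 in WT 3 and 201228 to 209436 in the others. As a share of them the members took 0.334%, 0.306% and 0.281% in WT and 0.304%, 0.307% and 0.318% in Pbrm1 cKO, with means of 0.307% ± 0.0265 and 0.310% ± 0.00726 (SD, n = 3 each). The lower number in Pbrm1 cKO was thus not seen in the shares. Among the 100000 best-ranked intervals of each library the difference of the means shrank from −33.3 to −0.33. The muscle and vascular laminins had 145, 152 and 145 in WT and 127, 139 and 134 in Pbrm1 cKO. As shares these were 0.0717%, 0.0726% and 0.0601% against 0.0631%, 0.0680% and 0.0652%, and WT 3 lay below every Pbrm1 cKO library.

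Itgb5, Lama2 and Itgb6 show how regions within a gene varied. No set rule chose these genes. In Itgb5, 10 of 17 regions ranked better on average in Pbrm1 cKO, as did 50.0% of all regions. Those with an unadjusted p under 0.05 were 3 (17.6%, against 15.9% of all regions), centred 30.6 and 43.6 kb inside the gene and 121 kb from its 5′ end, with differences of 0.80, 0.70 and 0.85. An intron 40.3 kb inside the gene went the other way, at −0.61 (SE 0.32, limma adjusted p = 0.361). Its start region ranked between 15996.5 and 39558, and the genotypes overlapped there.

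In Lama2, 7 of 9 regions ranked better on average in Pbrm1 cKO, with a median difference of 0.26, and in Itgb6 6 of 8 ranked better in WT, with a median of −0.34. Over all regions 50.0% ranked better in Pbrm1 cKO. No region of either gene passed. The regions of 1 gene share their libraries and are not replicates of each other.

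**Figure D5:**
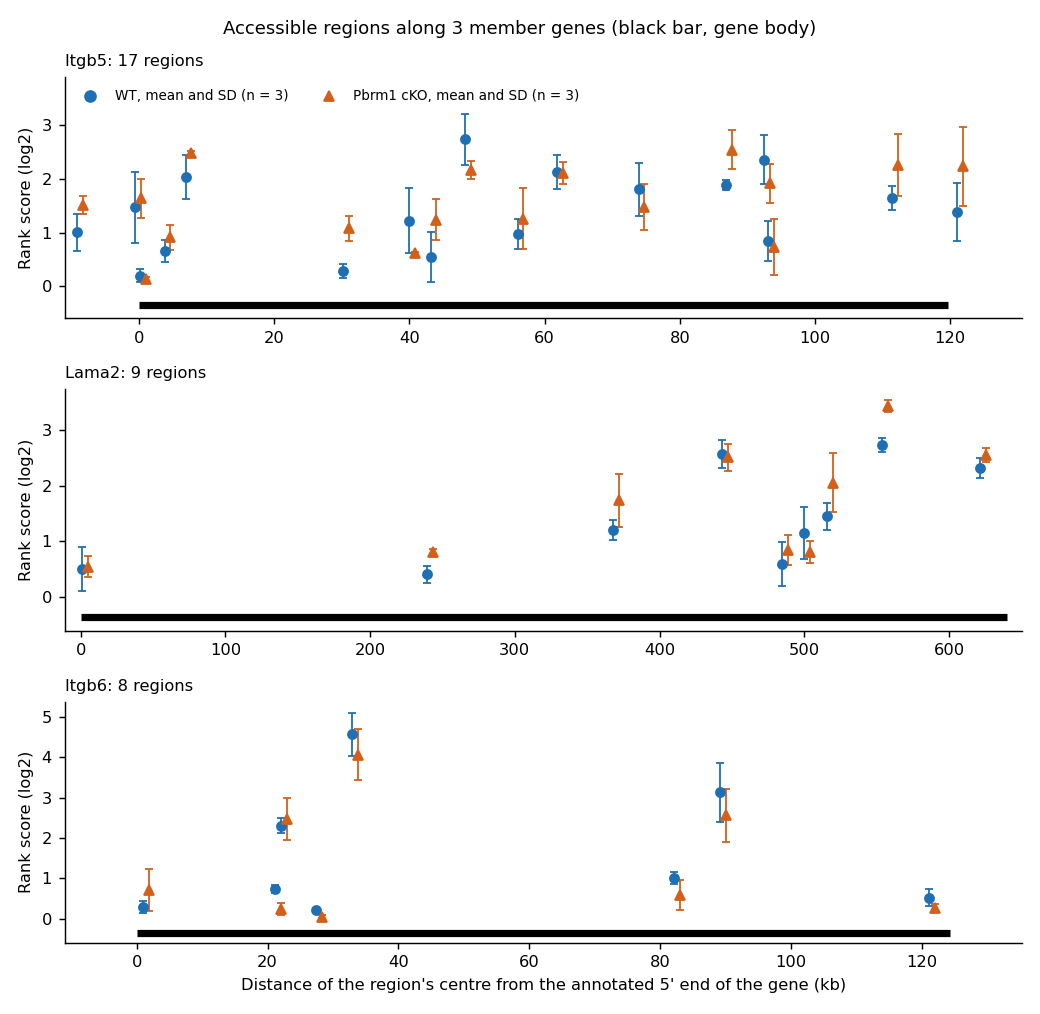
Rank score of every region of Itgb5, Lama2 and Itgb6 against the distance of its centre from the gene's 5′ end in kb. Points are means with SD of 3 WT (blue circles) or 3 Pbrm1 cKO (orange triangles) libraries, shifted slightly sideways, and the black bar is the gene body. The strongest Itgb6 region lies 33.4 kb inside the gene, and Itgb5 carries 17 regions along its length.

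The windows around the summits had the base composition of regions in general, with a median GC content of 50.8% over the members and 51.0% over all. Matches to the AP-1 pattern, with any base in the middle, were found in 85 of 210 member windows (40.5%, against 33.9% of all regions). Outside promoters the share was 48.2% in members and 43.7% in all regions, and at promoters 25.4% and 13.4%. The TEAD motif GGAATG was found in 19.0% of member windows against 15.4%, the RUNX motif in 14.3% against 15.6% and the E-box CAGCTG in 15.2% against 14.6%. The CArG box bound by SRF and the progesterone and glucocorticoid receptor element were found in 0 member windows, and in 1.15% and 0.346% of all regions. Motifs were searched on both strands and could overlap. A match is a description of the letters and was not tested.

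Partners of the integrins and laminins were read at their promoters. Of 26 adhesion complex genes, 25 had a promoter region (not Lims2), 60 in all with a median rank of 8299 for the best per gene. None of the 60 passed the test, and at an unadjusted p under 0.05 there were 2 higher and 7 lower in Pbrm1 cKO (9 of 60, near the 15.9% of all regions). A start region of Tns1, a tensin that links integrins to actin (chr1:74036577-74037465), ranked 26764, 26739.5 and 22239 in WT and 53298.5, 51335 and 42686.5 in Pbrm1 cKO (difference −0.96, SE 0.28, limma adjusted p = 0.126). A start region of Ptk2, the focal adhesion kinase, differed by −0.97 (SE 0.31, limma adjusted p = 0.152), and one of Lims1, the PINCH adaptor, by 0.47 (SE 0.16, limma adjusted p = 0.169). The start nearest to that Ptk2 region is of Gm49066. None of these was the best-ranked start region of its gene. Those of Tns1, Ptk2 and Lims1 differed by −0.02, 0.42 and −0.14 (SE 0.38, 0.43 and 0.49), and the genotypes overlapped in each.

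Of 20 basement membrane and matrix partner genes, 17 had a promoter region, 21 in all, and again 0 passed. At an unadjusted p under 0.05 there were 0 higher and 4 lower in Pbrm1 cKO. That was 19.0%, against 15.9% of all regions in either direction and 8.37% lower. The promoter of Vtn, the vitronectin gene, also lies at the start of Sarm1 (chr11:78497007-78498177). It ranked 3172, 5166 and 4012.5 in WT and 9839.5, 15007.5 and 18717 in Pbrm1 cKO (difference −1.80, SE 0.38, limma adjusted p = 0.0812). The Sgcd promoter, of the δ-sarcoglycan of the dystrophin complex of muscle (chr11:47378889-47379716), ranked 7033, 9541 and 11443 in WT and 19013, 30151.5 and 20526 in Pbrm1 cKO (difference −1.31, SE 0.35, limma adjusted p = 0.106). In both, all WT libraries ranked better. With normal scores their limma adjusted p was 0.0164 and 0.0388. The Vtn call was lost without WT 1, Pbrm1 cKO 2 or Pbrm1 cKO 3 (adjusted p from 0.0747 to 0.0862), and the Sgcd call without any single library other than WT 3 (0.0621 to 0.191). A start region of Sgce, another sarcoglycan, differed by −0.53 (SE 0.22, limma adjusted p = 0.251). The best-ranked start region of Sgce was another one, which differed by −0.13 (SE 0.30). The genotypes overlapped in both Sgce regions.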

How the data were processed

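ATAC-seq peak lists of 3 WT and 3 Pbrm1 cKO libraries were used. According to its methods, the study ran the ENCODE ATAC-seq pipeline 1.9.0 on GRCm38 and called peaks with MACS2. Those methods describe libraries of uterine stromal cells, and the oviduct muscle data are shown in the study as browser tracks. The authors deposited a relaxed list per library (p of 0.01, at most 300000 entries) and 1 conservative list per genotype at an IDR of 0.05, whose values show pooled reads. Each deposited entry carries a fold enrichment (a ratio to local background), a −log10 p and a score. The processing notes also name cutadapt, Bowtie2 and GRCm38.p5.

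The conservative lists were merged where they shared a base. Member genes and lists were chosen with earlier results of these data known. In the methods, which describe uterine stromal cells, the authors counted reads and used DESeq2. The lists hold no read counts, so every library's regions were put in order of their top −log10 p (no entry, lowest tied rank), and log2(number of regions / rank) was compared with limma 3.58.1 in R 4.3.3 (lmFit, eBayes with trend, Benjamini-Hochberg adjustment over all 66679 regions, threshold 0.05). A shift common to a whole library is not visible in ranks. The fit was also run on simulated data, with changes larger than any member difference. How well it finds smaller changes was not tested. Relaxed lists held 298563 to 300000 entries, or 201228 to 241237 distinct intervals. Tag numbers were solved from fold and p and matched the listed p within 0.01 in 100% of member entries. No counts underlie the ranks, so no counting interval is given.

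Promoters lay within 1 kb of a GENCODE M21 start. Sequences are from RefSeq's GRCm38 assembly, and those over a UTR or on chromosome 18 are not shown. Named regions were, per class, the 3 with the smallest p and the 2 best and 2 worst promoters, plus the 3 of each genotype's own regions best ranked in its libraries and the 3 smallest p of each partner list. The epithelial integrin region with the smallest p, which did not pass the test, is not reported here. Other regions named in Itga3, Itga7, Itgav, Itga1, Lama4, Lama5, Itgb7, Itgb6 and Itgb5 were chosen after their values were seen. So were those at neighbouring genes and the best-ranked start regions of Tns1, Ptk2, Lims1 and Sgce. Alternatives were another rank scale, ranking by fold, stricter filters, other windows, a replicate block and leaving out each library. Python 3.11.15 with pandas 2.3.3, NumPy 2.4.6, SciPy 1.17.1, pysam 0.24.0 and matplotlib 3.10.9 was used. Where the labels do not say that libraries came from separate mice, p-values measure only the spread between these libraries.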

Additional observations from a re-analysis of the deposited data

How the results depend on the processing

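No member region passed with log2 ranks in any alternative run. With normal scores 3 member regions were lower, 3 also with the replicate block, and without single libraries 0 to 3 were lower and 0 to 1 higher (Itga6 higher without WT 1, Itga2b higher without WT 3 and Itga7 lower without WT 2). Over all regions, numbers higher and lower in Pbrm1 cKO were 26 and 19 as reported, 662 and 890 with normal scores, 4 and 0 ranked by fold, 21 and 10 with entries in all 6 libraries, 40 and 24 with regions above the median score, 66 and 65 with a replicate block, and 596 and 822 with normal scores and a replicate block. Without single libraries they were 2 to 5 and 0 to 15, and with normal scores, leaving out WT 1 to 3 and then Pbrm1 cKO 1 to 3, 179, 361, 904, 42, 83 and 439 higher and 247, 400, 869, 109, 226 and 681 lower. The cause was not tested. At an unadjusted p under 0.05, ranking by fold gave 4692 lower. Same-numbered libraries correlated at −0.00338, −0.0616 and 0.00835 in their deviations from the mean of their genotype. With so few libraries this cannot decide whether same-numbered libraries were handled together. The normal scores with a library left out or with the block were chosen after seeing the data.

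With 50 kb flanks there were 401 member regions, 45 of WT alone, 62 of Pbrm1 cKO alone and 294 shared. In the entries above the median −log10 p of each list there were 107 in all, 13 WT-only, 12 Pbrm1 cKO-only and 82 shared. The interval difference was −0.33 among the 100000 best intervals and −45.3 to −24.0 without single libraries.

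Of the named regions, none of which passed the threshold with log2 ranks, 21 of 445 alternative values reversed their sign. Ranked by fold these were Itgb1 (−0.073), Itgb2 (−0.042) and Lama1 (−0.19), and with normal scores the WT-only exonic region upstream of Itgb4 (−0.012). Without single libraries the differences ran from −0.39 to 0.14 in Itga5, −0.11 to 0.50 in Itgb8, −0.12 to 0.33 in Itga2, −0.10 to 0.34 in Itgb2, −0.17 to 0.21 in the Lama2 start region, −0.33 to 0.38 in Lama1, −0.010 to 0.15 in Lamb3, −0.10 to 0.39 in that exonic region and −0.38 to 0.14 in the WT-only Itgb5 region. The depth of WT 3, at a median of 16.5 tags, limits weak regions most.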
